A study of Mus musculus with 6 samples.

Results

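A set of 10 genes best known from nerve cells were followed in cultured mouse fibroblasts with and without a working Klf4 gene. They are Gap43, Basp1, Marcks, Stmn2, Tubb3, Dpysl3, Crmp1, Fez1, Nes and Gfap, and they were taken as all 13 probes that carry those 10 gene symbols, of 46621 probes deposited for 34508 symbols. The genes were picked with the difference between the groups already known for some of them, so their own values are given as a description and are not tested. RNA came from mouse embryonic fibroblasts (MEFs), connective-tissue cells grown out of embryos, of the C57Bl/6 strain with a stated age of 13 days, harvested at 80 to 90% confluence. There were 6 samples, each on 1 Illumina bead array: 3 were wild type (Klf4 +/+) and 3 carried the disruption on both alleles (Klf4 -/-, called Klf4-null here). The replicates are numbered, but no separate embryos or cultures are named. The p-values thus reflect just the scatter among these arrays, possibly technical in origin, and a difference between cultures cannot be told apart from a difference in genotype.

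A growing axon ends in a growth cone, a motile tip in which membrane-bound phosphoproteins such as Gap43, Basp1 and Marcks regulate actin, while stathmins, tubulins and the collapsin response mediator proteins regulate microtubules. Nestin (Nes) and Gfap are intermediate filament proteins used as markers of neural progenitors and of astrocytes. Several of these genes are not restricted to neurons: Marcks is expressed in many cell types, and nestin also appears in muscle precursors and other dividing mesenchymal cells.

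Values are the authors' normalized probe intensities on a linear scale. Background was estimated on each array from the dim side of the intensity distribution, and its limit lay at an intensity of 54.0 to 54.2. A probe above that limit on at least 3 of 6 arrays was tested, which kept 21825 probes. Of these, 8483 passed an adjusted p of 0.05 by limma (38.9%), with 19.0% higher and 19.9% lower in null cells, and the median difference over all tested probes was -0.02 on the log2 scale. Klf4 itself was read by 3 probes that disagree. On the null arrays ILMN_1241903 lay at 39.7 to 46.8, against 95.6 to 103 in wild type, and ILMN_1221264 at 41.3 to 45.4, against 63.2 to 78.0. ILMN_2593684 was higher in null cells, at 702 to 737 against 380 to 494. Where these probes lie with respect to the disruption is not given in the sources used here.

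Among the 10 genes, the data divide into a few very large differences and a majority with little or none. Gap43 and Nes were at background in wild-type cells and bright in null cells, while Fez1 was bright in wild-type cells and close to background in null cells. Marcks, Dpysl3 and Tubb3 were above background on all 6 arrays and differed by 1.10-fold, 1.25-fold and 1.13-fold. Stmn2 and Crmp1 were at background on all 6 arrays, and Basp1 and Gfap hovered around its limit. Of the 13 probes, 9 probes of 8 genes could enter the fit, and Gap43 and the brighter Nes probe did so only through the null arrays. By the fit's rule 3 of these 9 probes were higher and 2 lower in null cells, against 38.9% of all tested probes, and the groups did not overlap for 7 of 9, against 47.3%. Since the genes were picked with this contrast known, nothing is read from those counts. In bulk RNA, fewer cells that express a gene and less of its RNA per cell cannot be told apart.

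Gap43, a palmitoylated membrane protein of the growth cone that binds calmodulin and is phosphorylated by protein kinase C, had the largest upward difference of the 10 genes. Its single probe, ILMN_1234990, gave 41.1, 39.1 and 40.4 on the wild-type arrays and 1766, 1242 and 1502 on the null arrays. All wild-type values lay below the background limit and all null values far above it, so the ratio is a lower bound of at least 27.5-fold (measured log2 difference 5.21, SE 0.11, n = 3 per group). The null mean was 1503 ± 262 (SD, n = 3).

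The other membrane-associated phosphoproteins of this kind gave far smaller differences. Marcks, which binds phosphoinositides, calmodulin and actin and is released from the membrane by protein kinase C, gave 3133, 2960 and 2977 on wild-type arrays and 3364, 3327 and 3320 on null arrays. The groups did not overlap, but the difference was small, at 0.14 on the log2 scale (SE 0.07), or 1.10-fold. Basp1, a myristoylated protein with a similar role at the membrane, gave 48.0, 57.7 and 64.1 on wild-type arrays and 64.9, 63.3 and 60.1 on null arrays. The first of these values was below the background limit and the groups overlapped, so no difference was measurable for Basp1 at this signal (log2 difference 0.16, SE 0.10).

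The microtubule genes were low. Tubb3, the beta-tubulin used as a marker of neurons, gave 88.4, 92.8 and 92.9 on wild-type arrays and 79.4, 81.0 and 83.1 on null arrays. Every null value lay below every wild-type value, at a difference of -0.17 on the log2 scale (SE 0.07). Stmn2, a stathmin that destabilizes microtubules in growth cones, stayed below the background limit everywhere, at 44.6 to 49.5 in wild-type cells and 40.8 to 50.5 in null cells. A further probe deposited under Scgn10, an older symbol of Stmn2, lay at 48.5 to 54.5 in wild-type cells and 48.3 to 54.0 in null cells. It crossed the background limit on 1 wild-type array only.

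The collapsin response mediator proteins bind tubulin and act downstream of semaphorins. Dpysl3 gave 334, 332 and 415 on wild-type arrays and 507, 463 and 378 on null arrays. The highest wild-type value exceeded the lowest null value, so the groups overlapped despite the higher null mean of 449 ± 65.6 (SD) against 360 ± 47.3 (log2 difference 0.32, SE 0.12, n = 3 per group). The fit counts this probe as higher, but 9 of 14 alternative settings did not, among them the omission of wild-type replicate 1 or 2 or of null replicate 1 or 2. Crmp1 was at background on all arrays, at 42.8 to 45.7 in wild-type cells and 39.8 to 44.0 in null cells.

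Fez1, an adaptor that links cargo to kinesin motors during axon outgrowth and is the mammalian relative of UNC-76 of Caenorhabditis elegans, showed the opposite pattern to Gap43 and Nes. Probe ILMN_1256371 gave 3448, 3296 and 3667 on wild-type arrays and 98.1, 83.4 and 97.6 on null arrays. Probe ILMN_2643495 gave 2790, 2875 and 3227 against 88.1, 81.2 and 84.5. Both probes agreed in direction and size, and all null values remained above the background limit. The differences were -5.22 (SE 0.09) and -5.13 (SE 0.08) on the log2 scale, or 37.4-fold and 35.0-fold. RefSeq gives Fez1 3 start sites on chromosome 9, and the window from 250 bases before to 50 after the first of them, on the plus strand of GRCm38.p6, is printed to show the promoter of the member that was lower in null cells. Capitals mark CACCC, the core of the element that Kruppel-like factors bind, or GGGTG, the same letters on the other strand.
Fez1, chr9:36821641-36821940: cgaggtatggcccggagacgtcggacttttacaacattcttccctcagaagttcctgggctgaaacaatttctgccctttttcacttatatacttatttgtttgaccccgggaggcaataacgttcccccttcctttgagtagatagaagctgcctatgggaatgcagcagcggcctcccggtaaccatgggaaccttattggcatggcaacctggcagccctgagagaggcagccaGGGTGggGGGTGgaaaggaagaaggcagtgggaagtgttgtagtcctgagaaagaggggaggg

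Nes codes for nestin, which assembles with vimentin into filaments. Its 2 probes disagree. ILMN_2703267 gave 43.9, 44.1 and 43.4 on wild-type arrays and 856, 762 and 812 on null arrays. Every wild-type value was at background, so the ratio is at least 15.0-fold (measured log2 difference 4.21, SE 0.08). ILMN_1244026 was at background on all 6 arrays, at 45.2 to 53.4 in wild-type cells and 48.2 to 51.4 in null cells, and was not tested. The target positions of both probes are not given in the sources used here, so which transcripts each reads was not analysed. The RefSeq window of Nes is printed below with the same marks, as that of a member higher in null cells, also from the plus strand of GRCm38.p6.
Nes, chr3:87970843-87971142: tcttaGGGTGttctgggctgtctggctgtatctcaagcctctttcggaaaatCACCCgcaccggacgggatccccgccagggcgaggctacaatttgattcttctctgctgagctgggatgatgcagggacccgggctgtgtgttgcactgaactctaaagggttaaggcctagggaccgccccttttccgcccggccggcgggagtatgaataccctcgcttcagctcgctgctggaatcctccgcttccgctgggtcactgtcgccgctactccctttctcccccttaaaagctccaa

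Both printed windows held 2 matches to the letters. In Fez1 they start 13 and 6 bases before the transcription start, both on the strand opposite to the gene, and in Nes 245 and 198 bases before it, on opposite strands. Of the other Fez1 windows, the second held none and the third 2. The letters are short and common: 57.5% of 32851 RefSeq windows of the same 300 bases hold them on either strand, and so did 7 of 9 windows of the 6 members looked up here, among them Gfap with 4 and Basp1 with 3. A match is a string of letters and no evidence of binding, and none of these windows was assayed.

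Gfap, the filament protein of astrocytes, was near background with both probes. ILMN_1214715 lay at 40.8 to 51.1 in wild-type cells and 40.9 to 49.3 in null cells. ILMN_1215847 lay at 56.0 to 58.5 and 51.6 to 54.6, above the background limit on 3 wild-type arrays and 1 null array, with a log2 difference of -0.11 (SE 0.07). Although the groups of the latter did not overlap, its values straddled the limit, and no level of Gfap clear of background was seen in either group.

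**Figure D1:**
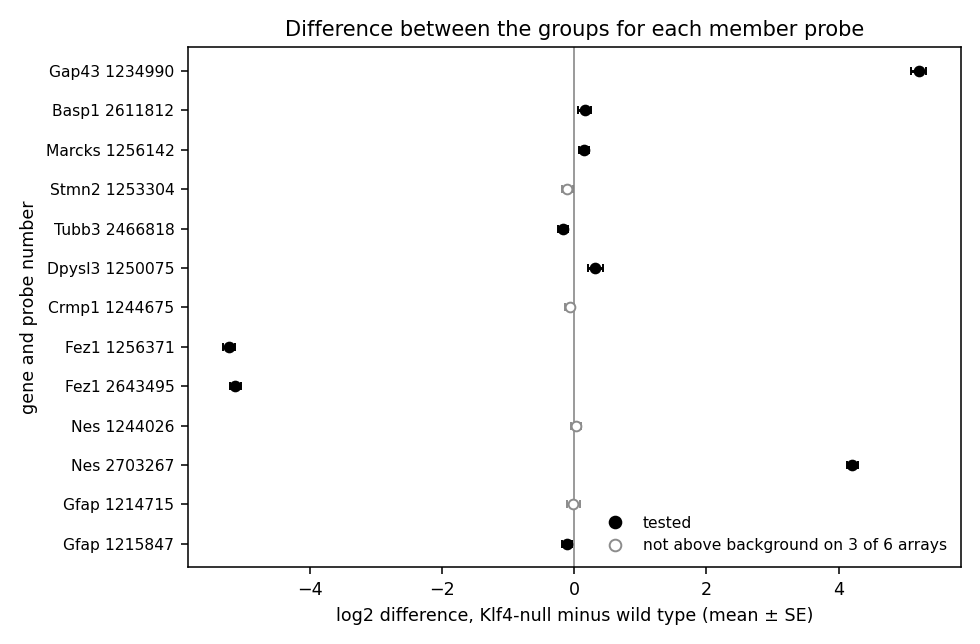
Difference between the group means on the log2 scale (Klf4-null minus wild type) with its SE for the 13 probes of the 10 genes, 3 arrays per group; open points were not above background on 3 of 6 arrays. Gap43 (5.21), Nes probe 2703267 (4.21) and both Fez1 probes (-5.22 and -5.13) stand far from 0, and the other 9 probes lie between -0.17 and 0.32.

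The genes next to the 3 members with large differences were examined, a set chosen by position after the members' values were seen. It held 2 protein-coding genes on each side in RefSeq gene order of GRCm38.p6. Crabp2, which lies directly beside Nes on chromosome 3 and binds retinoic acid in the cytosol, rose as Nes did. Its probe gave 47.6, 47.0 and 47.9 on wild-type arrays and 1282, 1253 and 1341 on null arrays, which is at least 23.9-fold (log2 change 4.77, SE 0.07, adjusted p = 1.44e-14). On the other side of Nes, both probes of Bcan, a brain proteoglycan, gave log2 changes of -0.08 and 0.07 (adjusted p = 0.458 and 0.619). Isg20l2 and Hapln2, farther out, were at background on all arrays.

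Beside Gap43 on chromosome 16, 2 of 3 probes of the zinc-finger gene Zbtb20 rose slightly, with log2 changes of 0.37 (SE 0.09, adjusted p = 0.00392) and 0.35 (SE 0.09, adjusted p = 0.00639), and the third gave 0.18 (adjusted p = 0.106). The tested probes of Lsamp, a neuronal adhesion gene, gave -0.02 and -0.03. Tigit and Gm52229 were not analysed here. Beside Fez1 on chromosome 9, no tested probe of Stt3a, Ei24, Pknox2 or Tmem218 passed. The largest difference among them was 0.20 for Stt3a (SE 0.09, adjusted p = 0.0863). The very large difference in Fez1 had no counterpart of similar size in any flanking gene read here, and that in Nes had 1, in Crabp2.

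**Figure D2:**
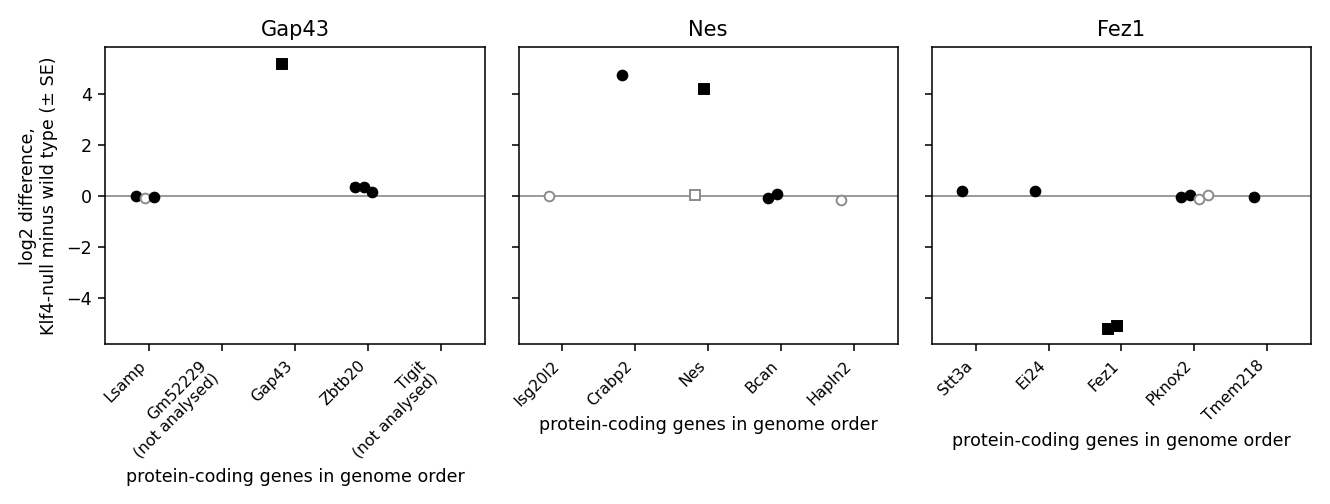
Log2 difference (Klf4-null minus wild type, with SE, 3 arrays per group) for every probe of Gap43, Nes and Fez1 (squares) and of the 2 protein-coding genes on each side in genome order (circles); open symbols were not above background on 3 of 6 arrays. Crabp2, next to Nes, lies at 4.77, and the other flanking probes lie between -0.14 and 0.37.

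Other genes of the same cytoskeletal system moved in both directions. Of 19 tested growth cone and axon cytoskeleton partners, each read by its brightest probe, 6 rose, 3 fell and 10 did not pass, with a median log2 change of 0.08 against -0.02 over all tested probes. The counts of this and the following lists stand against 19.0% of all tested probes that rose and 19.9% that fell. Those shares include the dimmer probes of each gene, so they are not a like measure for genes read by their brightest probe. The actin-bundling protein fascin (Fscn1) rose from 4323 to 6554 (log2 change 0.61, SE 0.14, adjusted p = 0.00323). Tuba1a rose from 480 to 810 (0.78, SE 0.15, adjusted p = 0.000999), and Tubb2b rose from 56.6 to 83.4, above background on 2 of 3 wild-type arrays (0.56, SE 0.08). Tubulin genes are close in sequence, so which of them these probes read is uncertain. Enah, which extends actin filaments at the leading edge, fell from 647 to 427 (-0.60, SE 0.08, adjusted p = 2.08e-05). The calls for Fscn1 and Tuba1a were lost with per-probe variances, that is, with no sharing of the variance between probes (adjusted p = 0.126 and 0.0936).

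The relatives Fez2, Dpysl2 and Marcksl1, and the partner Ncam1, were named after their values were seen. Fez2, the paralog of Fez1, gave 2095, 1883 and 2190 on wild-type arrays and 1995, 1645 and 1563 on null arrays (log2 change -0.25, SE 0.10, adjusted p = 0.0653). The groups overlapped. Dpysl2, the relative of Dpysl3 and Crmp1, fell from 5638 to 4432 (-0.35, SE 0.08, adjusted p = 0.00447), and its other tested probe gave -0.49. Marcksl1 gave 0.13 (adjusted p = 0.389). The neural cell adhesion molecule Ncam1, a partner of Gap43 in neurite outgrowth, fell on all 3 tested probes. The log2 changes were -0.38 and -0.62 on the brighter ones and -2.21 on ILMN_2722864, where the wild-type values of 396 to 428 stood against 81.5 to 91.7 in null cells.

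Tested genes of intermediate filament proteins and their linkers, besides Nes and Gfap, numbered 7. Each read by its brightest probe, 1 rose, 0 fell and 6 did not pass. The median was -0.03. The one that rose was Plec, a linker of filaments to the membrane, from 8445 to 12138 (log2 change 0.52, SE 0.09, adjusted p = 0.00033). The 3 other tested probes of Plec did not pass. Lmna did not pass on its brightest probe, but ILMN_1221646 rose from 517 to 950 (0.88, SE 0.08, adjusted p = 4.77e-07). Of its other tested probes, ILMN_2662387 passed with overlapping groups (0.33, adjusted p = 0.0256), and ILMN_1254405 and ILMN_2597710 did not (0.04 and 0.20). Vimentin (Vim), the filament partner of nestin, differed by 0.00 on the log2 scale (SE 0.07, adjusted p = 0.98). Its probe was very bright, at 20415 to 21019 in wild-type cells and 20467 to 20826 in null cells. Whether a probe this bright could register a rise was not tested. The other tested Vim probe, ILMN_1232980, lay near the background limit, at 55.3 to 57.4 and 57.1 to 60.3 (0.05, adjusted p = 0.646). The neurofilament and neuronal filament genes Nefl, Nefm, Ina and Prph were at background on all arrays.

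Of 13 tested kinases and calmodulins that act on the member proteins, 3 rose, 4 fell and 6 did not pass (median -0.02), against 19.0% and 19.9% of all tested probes that rose and fell. Prkca, a protein kinase C that phosphorylates Gap43 and Marcks, fell from 1225 to 780 on its brighter probe (log2 change -0.65, SE 0.11, adjusted p = 0.000305). That probe was deposited under another symbol and was assigned to Prkca only by the synonym update. The probe deposited as Prkca, ILMN_1217890, gave 0.03 (adjusted p = 0.796). Cdk5, which phosphorylates collapsin response mediator proteins, rose from 113 to 201 (0.83, SE 0.10, adjusted p = 1.18e-05), and Gsk3a rose from 72.0 to 101 (0.49, SE 0.10). Mapk8 fell from 165 to 131 (-0.34, SE 0.09), and 1 of its 3 other tested probes also passed (-0.23, adjusted p = 0.0446). The calls for Gsk3a and Mapk8 were lost with per-probe variances (adjusted p = 0.0655 and 0.102), and that for Mapk8 also without wild-type replicate 1 or null replicate 3 (adjusted p = 0.0541 and 0.0639).

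REST is the repressor that keeps neuronal genes silent outside the nervous system, working through the CoREST and Sin3 complexes. Rest itself gave 131, 115 and 122 on wild-type arrays and 108, 136 and 137 on null arrays (log2 change 0.04, SE 0.10, adjusted p = 0.795), with overlapping groups. Of 12 tested genes of the complex, 4 rose, 2 fell and 6 did not pass (median 0.07). Rcor1, the CoREST scaffold, fell on both tested probes, from 1545 to 992 (-0.63, SE 0.11, adjusted p = 0.000336) and by 1.72 on the log2 scale on ILMN_1215969 (SE 0.11, adjusted p = 2.34e-08). The former probe was deposited under another symbol and was assigned to Rcor1 only by the synonym update. Sin3b fell (-0.46, SE 0.12), and Rcor2 and Sin3a rose (0.40, SE 0.08 and 0.39, SE 0.09). The other tested probe of Sin3b gave -0.09 (adjusted p = 0.461), and those of Sin3a gave 0.13 and 0.05 (adjusted p = 0.267 and 0.676). The Sin3a and Sin3b calls were lost with per-probe variances (adjusted p = 0.0738 and 0.151).

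Of 11 tested neuron markers, 1 rose, 5 fell and 5 did not pass (median -0.17), against 19.0% and 19.9% of all tested probes that rose and fell. The summed intensity of the 14 markers read was 2405 to 2464 in wild-type cells and 1559 to 1657 in null cells. Sums such as this mostly follow the brightest probes. Syn1, a synaptic vesicle protein, gave 380, 325 and 400 on wild-type arrays and 63.3, 57.6 and 54.5 on null arrays (log2 change -2.65, SE 0.09, adjusted p = 3.73e-11). Its other probe fell by 2.14 on the log2 scale. The vesicular glutamate transporter Slc17a6 fell from 238 to 55.4 (-2.11, SE 0.09), to above background on 2 of 3 null arrays, and the enolase Eno2 fell from 629 to 369 (-0.78, SE 0.09). Uchl1, a deubiquitinase abundant in neurons, rose at least 2.74-fold, from background to 148 (1.60, SE 0.08, adjusted p = 2.34e-09). Snap25 did not pass (-0.17), and Syt1 was at background on all arrays.

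Markers of neural progenitors were mostly near background. Of 11 on the array 3 were tested, of which 1 rose and 0 fell, and the summed intensity was 529 to 618 in wild-type cells and 574 to 600 in null cells. The one that rose was Sox2, on both probes but at low levels. ILMN_2656103 went from 57.6, 53.2 and 57.6 to 76.8, 73.4 and 73.8 (log2 change 0.41, SE 0.08, adjusted p = 0.000622), and ILMN_1248711 from background to 70.1 to 87.9, at least 1.47-fold (1.03, SE 0.10). Sox1, Fabp7 and Neurog2 were at background on all arrays.

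Of 6 tested markers of glia, 1 rose and 1 fell (median 0.01), and the sum of the 13 read was 1448 to 1561 in wild-type cells and 806 to 819 in null cells. The lower sum traces to the glutamate transporter Slc1a3, which gave 854, 835 and 750 against 124, 119 and 102 (log2 change -2.83, SE 0.09, adjusted p = 1.45e-11). Aldoc rose from 61.3 to 75.3, not far above the background limit (0.30, SE 0.08), and its other probe, too dim to be tested, gave 0.03. The glial genes S100b, Olig1, Sox10 and Erbb3 were at background on all arrays.

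Markers of the neural crest, an embryonic source of both nerve and connective tissue, showed large differences. Of 6 tested, 3 rose, 2 fell and 1 did not pass (median 0.21), and the sum of the 10 read was 5331 to 5656 in wild-type cells and 2386 to 2818 in null cells. The lower sum traces mainly to Sox9, which fell from 3757 ± 227 (SD) to 687 ± 64.4 (log2 change -2.45, SE 0.09, n = 3 per group, adjusted p = 4.02e-11). Tfap2a fell from 569 to 141 (-2.01, SE 0.09). Msx1 rose at least 4.07-fold from background to 221 on ILMN_1246173 (2.43, SE 0.10), but its other probe gave -0.08 (adjusted p = 0.532). Snai2 rose from 203 to 397 (0.96, SE 0.09). Foxd3 and Ngfr were at background on all arrays.

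**Figure D3:**
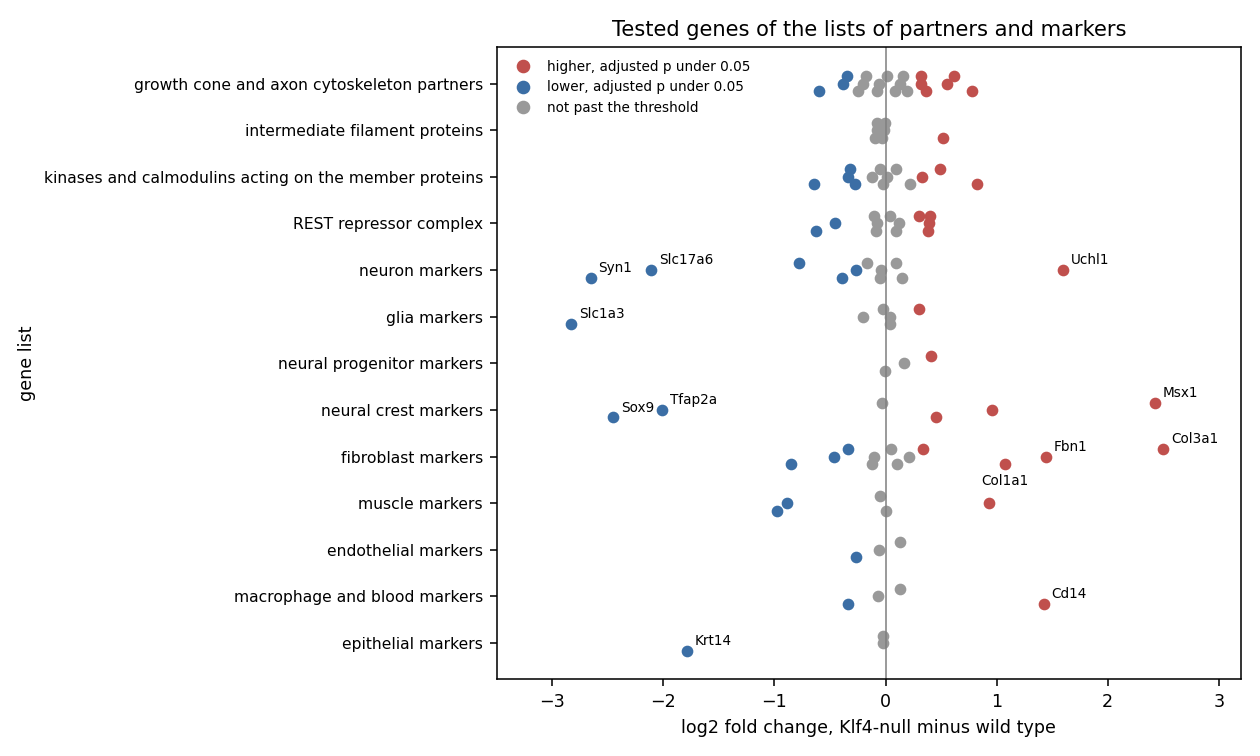
Log2 fold change (Klf4-null minus wild type) of each tested gene, read by its brightest probe, in the lists of partner genes and of cell type markers; red and blue points passed an adjusted p of 0.05 by limma and grey points did not. The largest differences are those of Slc1a3, Syn1, Sox9, Tfap2a and Slc17a6 among the falls and Col3a1 and Msx1 among the rises.

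The fibroblast label was checked against 14 defining genes, of which 12 were above background on all 6 arrays. Of these 12, 4 rose, 3 fell and 5 did not pass (median 0.08). Fap was at background on all arrays, and Postn was above it on 1 wild-type array. The summed intensity was 28819 to 33417 in wild-type cells and 35134 to 39250 in null cells. Col1a1 alone went from a mean of 5313 to 10926. Col3a1, Fbn1 and Col1a1 rose by 2.50, 1.44 and 1.07 on the log2 scale on their brightest probes. The 2 other tested Fbn1 probes rose less, by 0.41 and 0.26 (adjusted p = 0.000768 and 0.0157). The other probes of Col3a1 and Col1a1 were too dim to be tested. Pdgfra fell by 0.85 on its brighter probe, while the other gave -0.06 (adjusted p = 0.618). The Col1a1 call was lost with per-probe variances (adjusted p = 0.0511).

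Markers of other cell types were at background for some genes and well above it for others, and their part in the differences above was not tested. The muscle regulators Myod1 and Myf5 were at background on all arrays, while Tnnt2 and Acta1 fell by 0.98 and 0.89 on the log2 scale and Chrna1 rose by 0.93 from a level above background on 1 of 3 wild-type arrays. The muscle sum was 532 to 623 in wild-type cells and 479 to 499 in null cells. The endothelial genes Tek and Tie1 were at background, and the sum was 370 to 380 against 360 to 377. Cdh5 fell by 0.27, from 64.6 to 53.7, close to the background limit. The Cdh5 call was lost without wild-type replicate 1 or null replicate 1 (adjusted p = 0.0545 and 0.0647). The blood-cell genes Ptprc, Adgre1 and Itgam were at background. However, 4 of the 8 macrophage and blood genes were above it on all wild-type arrays, and 4 on all null arrays. The macrophage gene Cd68 was above background on all arrays even on its dimmer probe, ILMN_2689785. That probe gave 67.9 to 98.4 in wild-type cells and 80.9 to 105 in null cells (log2 change 0.22, adjusted p = 0.214). Cd14 rose by 1.42, from 278 to 744, and Hba-a1 fell by 0.34, from 73.3 to 57.9, close to the background limit. The macrophage and blood sum was 819 to 851 against 1230 to 1336, a difference that traces mainly to Cd14. The epithelial genes Epcam, Krt5 and Cldn7 were at background, Krt14 fell at least 2.63-fold to background, and the sum was 361 to 385 against 269 to 279. Over all 13 lists, 26 of 104 tested genes rose and 25 fell, against 19.0% and 19.9% of all tested probes. The lists use the brightest probe of each gene and those shares use all probes, so no excess is read from this.

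The genes whose values ran most like those of Gap43 and of Fez1 were found by the distance between log2 values over the 6 arrays, each set relative to its wild-type mean, among the brightest probes of all named genes. For Gap43 they were Grem1, an antagonist of bone morphogenetic proteins, at a distance of 0.27, Sdr39u1 at 0.34 and Crtap, a cartilage-associated protein of the collagen-modifying complex, at 0.40. All 3 were at background on the wild-type arrays, and their null means were 1858, 1514 and 1526. For Fez1 they were Ptgis, the prostacyclin synthase, at 0.19, Bicc1 at 0.27 and Prl2c3 at 0.35, which is nearly identical to other placental prolactin genes and so uncertain. Ptgis fell from a mean of 2695 to 69.8 and Bicc1 from 2068 to 54.4. With 2 groups of 3 arrays this measure mostly reflects the size of the difference between the groups.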

How the data were processed

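RNA of 3 wild-type and 3 Klf4-null samples was labelled for Illumina bead arrays per the labels' protocols. The labels list Cy3 with Cy5 as dyes, but 1 intensity per probe and sample was deposited, and arrays were treated as having 1 colour. The authors' deposited intensities are linear and positive, with array medians of 51.7 to 51.8, and had been normalized between arrays. The method, any background subtraction and the annotation build are not given in the sources used here. Residual background would make ratios of dim probes understate the change. The table of unnormalized signals supplied only gene symbols: its 12 columns of per-sample values match no sample's labels and were not used.

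Symbols were updated through RefSeq (GRCm38.p6) by a current symbol for 25438 probes and a unique synonym for 8747, and kept for 12436. Near-identical genes may share signal. The mode of an array's log2 intensities was taken as its background, the values below it were mirrored, and the limit was set at the 95th percentile. The limits put 21054 to 21248 probes per array above background. The number of arrays limits the precision.

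Klf4-null was compared with wild type by limma 3.58.1 in R 4.3.3 (lmFit, eBayes, no covariate, 2-sided) on log2 intensities, with Benjamini-Hochberg adjustment over all 21825 tested probes, and the procedure was tested on simulated data. Log2 differences are null minus wild type. An "at least" ratio sets the brighter group's mean log2 value against, per array of the other, the higher of limit and signal. List genes are read by their probe with the highest mean. Up to 4 called genes per list with the largest changes and non-overlapping groups are named. List genes outside that rule are also named, such as those at background, those that did not pass and the relatives and partner set out above. No rule fixed in advance chose these. The members, lists and alternatives were chosen with earlier results of these data known. Sequences are from RefSeq. Gap43, Marcks, Stmn2 and Dpysl3 promoters were not analysed here.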

Additional observations from a re-analysis of the deposited data

How the results depend on the processing

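Leaving out 1 array at a time gave 7174 to 8248 changed probes (8483 with all), 4 to 5 changed member probes (5 with all) and 46 to 52 changed list genes (51 with all). Over probes above background on all 6 arrays, which by construction leaves out Gap43 and Nes, 3 member probes counted as changed. With the replicate block the counts were 8052, 4 and 50. The numbers gave no sign of pairing the samples. Same-numbered arrays correlated at -0.22 to 0.05 in their deviations from the group means, and 0 of 6 arrays correlated best with its own number. Differently numbered arrays reached 0.27 (wild type 3 with null 1) and 0.26 (wild type 2 with null 3). Whether arrays shared a run was not tested. With per-probe variances, 6114 probes, 6 member probes and 35 list genes changed, the Tubb3 and Marcks probes among them and Dpysl3 not. Under every alternative run on them, Gap43 and the brighter Nes probe had log2 differences of 4.72 to 5.34 and 3.76 to 4.25. For both Fez1 probes the ranges were -5.26 to -4.99 and -5.17 to -4.87. Direction and call stayed the same, but these genes were picked with this contrast known, so nothing is read from that. The smallest sizes came with an offset of 16 or with normexp at an offset of 50, which compress ratios of dim values. Of 481 values of the 35 named list genes under the alternatives, 0 reversed and 11, of 8 genes, lost their call. Arrays could not be assigned to slides, so no slide block was run. Signal near background limits Basp1, Gfap, Stmn2 and Crmp1, for which a small difference would not be detectable.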
